A study of Xenopus laevis with 16 samples.

Results

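The genes described here are those of the proteasome and of the ubiquitin cycle that a Xenopus laevis array carries. Members were the probes whose gene name starts with psm (a proteasome subunit), ube2, uba or usp followed by the letters or digits of that family, or whose description names a proteasome or a ubiquitin-conjugating enzyme. This rule chose 27 of 21495 probes, 21 by name and 6 by description only, and it used no measured value. The 27 probes comprise 8 for the 20S core, 6 for the 19S regulatory particle, 9 for ubiquitin-conjugating enzymes (E2) and 4 for ubiquitin-specific proteases (USP). No probe of a uba gene (the activating enzymes) was found under such a name.

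Proteins are marked for destruction by chains of ubiquitin, which an activating enzyme, a conjugating enzyme and a ligase attach in turn. The 19S particle of the 26S proteasome recognises, unfolds and feeds the marked protein into the 20S core, a barrel of alpha and beta rings whose beta subunits hold the proteolytic sites, while ubiquitin-specific proteases remove the marks. In early embryos this system clears maternal proteins, drives cell division and sets the level of signalling proteins such as beta-catenin. Some conjugating enzymes serve other ends, such as ube2n, which acts together with ube2v2 to build chains that serve in signalling and DNA repair. PSMB8 (LMP-7) and psmb9 (LMP2) are the subunits that replace constitutive beta subunits in the immunoproteasome, and the Xenopus LMP-7 gene lies in the major histocompatibility complex and is known in strongly divergent alleles.

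Embryos had received either a control morpholino or PVD2, a mixture of antisense oligos against the POUV genes Xlpou25, Xlpou60 and Xlpou91 (frog relatives of Oct4), at 60 ng per blastomere into both cells of the 2-cell embryo. RNA was taken at the late blastula (stage 9) and the early gastrula (stage 10) from pools of 3 whole embryos, or of 25 animal caps, the explanted prospective ectoderm cut from injected blastulae and cultured alone. The 8 groups of morpholino, tissue and stage had 2 replicates each, and scanner output was used for 15 arrays, so PVD2 caps at stage 10 had 1 array and were assumed to vary like the other groups. A difference of a probe between replicates then enters the values of that group in fits without a replicate term. Each array compared a Cy3-labelled sample with a Cy5-labelled reference pooled from whole embryos of 11 stages, and dyes were not swapped. Replicates are samples the labels list separately, and where they share a clutch the p-values measure only the spread between these samples. Each of 4 slides held 1 tissue and 1 replicate number, and each of 2 scan days held 1 tissue, so slide, scan day and tissue cannot be told apart. The replicate pair of PVD2 whole embryos at stage 10 agreed least (r = 0.773 across probes, against 0.896 to 0.927 in the other groups), and the results below were also computed without each array in turn. Where fewer cells of a type and less RNA per cell would give the same value, bulk RNA cannot tell them apart.

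The array's older names carry the ending "-prov" (provisional), which is left out here. Current names were found for 23 of 27 probes in the RefSeq table of this species. By that table psma4-B is a synonym of psma7, a different alpha subunit from psma4, Xrpn10c is psmd4, hspc150 is ube2t and usp46 is usp12b. The names MGC68784 (described on the array as a 26S ATPase subunit), BG233850 and BG413938 (described as similar to 19S subunits) and BI448211 (described as a conjugating enzyme) had no match and are used as given.

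Of the 27 members, 18 were well above background in Cy3 on all 15 arrays. They were 6 of 14 proteasome probes and 12 of 13 E2 and USP probes. In the 20S core the alpha subunits psma4-B and psma4 belonged to them, and psma3 was above background on 12 arrays. The beta subunit probes psmb1 (3 arrays), psmb4 (5 arrays) and PSMB3 (0 arrays) were mostly not well above background, so no fold is given for them. PSMB8 and psmb9-A were above background on 14 arrays each. In the 19S particle the ATPase probes psmc3 and MGC68784 and the non-ATPase probes Psmd12 (Rpn5 in yeast) and Xrpn10c (a form of the ubiquitin receptor Rpn10) were measured on every array, against 13 arrays for BG233850 and 11 for BG413938. The E2 probe BI448211 was above background on 0 arrays. All 8 members whose probe was designed on an expressed sequence tag were below background on at least 1 array, whereas 18 of the 19 others were above it on all arrays. Over the whole array the same shares were 27.9% of 13069 tag-based probes above background on all arrays and 69.5% of 8426 others. Of the 8 dim proteasome probes all but PSMB8 were of this type, and a dim probe is not read here as a low level of its gene.

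Over the control arrays of both tissues together, the well-measured proteasome subunits lay mostly below the reference pool and the USP genes mostly above it. The level used here is the log2 ratio of sample over reference. It carries any dye bias of the probe and gives no order of abundance between genes. Each probe was averaged over the 8 control arrays, and the median of these means over probes was -0.92 for the 6 proteasome subunits. It was -0.00 for the 8 E2 probes and 0.40 for the 4 USP probes, beside 0.06 for all 9494 probes above background on all arrays. Of the 18 members, 7 were below the reference on every array (38.9%, against 22.3% of such probes), and 3 were above it on every array (16.7%, against 27.2%).

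In the 20S core, psma4-B had a mean control ratio of -1.30 ± 0.19 (SD, n = 8 arrays) and ranged from -1.70 to -1.12 over all 15 arrays. psma4 had -0.97 ± 0.34 (SD, n = 8) and ranged from -1.44 to -0.29. Both alpha subunits were below the pool on every array. The ATPase probe MGC68784 had -1.20 ± 0.22 (SD, n = 8) and the receptor Xrpn10c -0.86 ± 0.27 (SD, n = 8), again below the pool on every array. psmc3, an ATPase of the base, was nearer to it at -0.31 ± 0.17 (SD, n = 8), and Psmd12 of the lid had 0.06 ± 0.32 (SD, n = 8), so the 19S probes spanned the range between them.

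Among the conjugating enzymes the spread was wider than among the proteasome subunits. ube2n had the lowest ratio of any well-measured member, -1.71 ± 0.49 (SD, n = 8), which is 3.27-fold below the pool. At the other end stood ube2r2, a partner of cullin ligases, at 0.75 ± 0.09 (SD, n = 8), and ube2h at 0.71 ± 0.18 (SD, n = 8), which also differed from each other by less than their spread. ube2v2, the partner of ube2n, had -0.61 ± 0.18 (SD, n = 8), while hspc150, Ube2e2 and ube2g1 were between -0.04 and 0.14. Of the proteases, usp46 was above the pool on every array at 0.55 ± 0.29 (SD, n = 8), and usp10 was below it on every array at -0.65 ± 0.13 (SD, n = 8). usp8 had 0.43 ± 0.54 (SD, n = 8) and usp25 had 0.37 ± 0.35 (SD, n = 8), over arrays of both tissues. In control whole embryos at stages 9 and 10 usp8 had means of 0.18 and -0.21, against 1.00 and 0.76 in control caps. usp25 had means of -0.10 and 0.28 in control whole embryos and 0.55 and 0.74 in control caps.

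**Figure D1:**
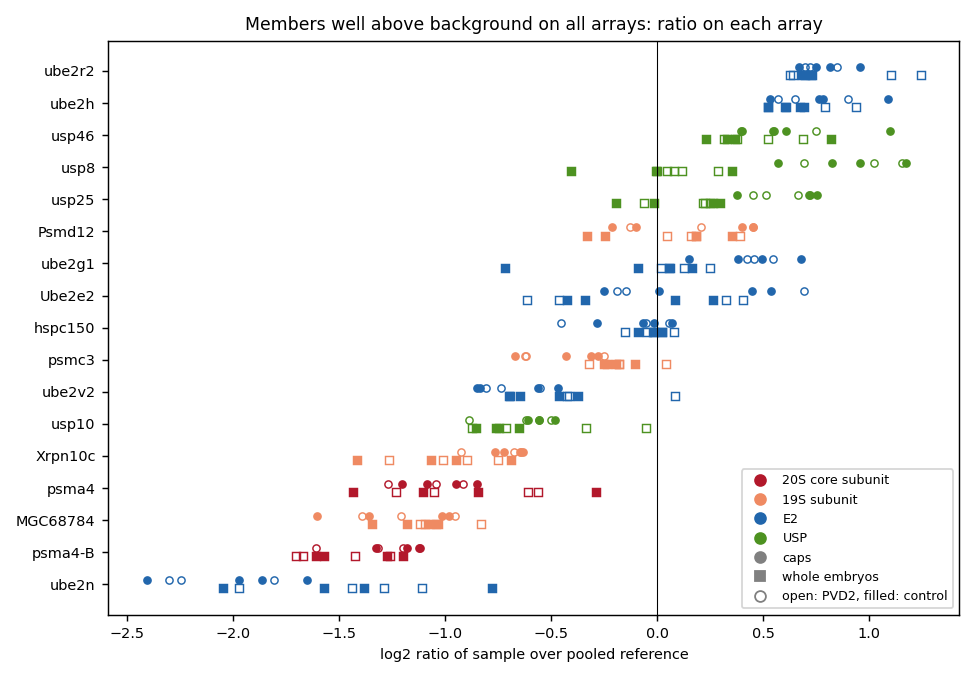
Log2 ratio of sample over pooled reference (x axis) on each of 15 arrays for 17 of the 18 members well above background on all arrays, ordered by median; circles are caps, squares whole embryos, filled control and open PVD2, with colour giving the class. The proteasome subunits psma4-B, MGC68784, psma4 and Xrpn10c sit left of zero on every array, and ube2r2, ube2h and usp46 right of it.

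The stage comparison asked how these transcripts differ between late blastula and early gastrula. No member passed the test for a stage change, taken as the mean of the 4 differences of stage 10 minus stage 9 (limma, Benjamini-Hochberg adjustment over all probes, threshold 0.05). This count of 0 of 27 compares with 5.07% of all probes called (10.7% of those above background on all arrays). An unadjusted p under 0.05 was found for 4 of 27 members, beside 2896 of 21445 probes. The fit had no term for slide or replicate. With a replicate block 1 member passed (8.29% of all probes), with the slide as a random block 1 (8.51%), and with the slide as a fixed term 2 (9.79%). Arrays of the stages were apart for 0 of 27 members, against 1.51% of all probes. The 18 well-measured members had a median change of 0.01, against 0.03 for all such probes. The medians were 0.08 for proteasome subunits, -0.06 for E2 and 0.00 for USP probes.

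psmc3, which helps the 19S base unfold substrates, came nearest to the threshold. It had a lowest, median and highest ratio of -0.67, -0.37 and -0.18 on the 8 arrays of stage 9, and of -0.31, -0.19 and 0.04 on the 7 of stage 10. The stages overlapped, but stage 10 was above stage 9 in 7 of 7 pairs of arrays from 1 slide. The mean of the group differences of psmc3, not of these pairs, was 0.23 (SE 0.05, limma adjusted p = 0.0531). It passed under 4 of 13 other settings of processing or model, but not with the replicate block or with the slide as a fixed term. With the slide as a random block the difference was 0.22 and passed the test (adjusted p = 0.0250), and leaving out control caps at stage 9 replicate 1 (0.26, adjusted p = 0.0289) or PVD2 whole embryos at stage 10 replicate 1 (0.25, adjusted p = 0.0331) had the same outcome. usp25 was also above in 7 of 7 pairs, with a mean of the group differences of 0.23 (SE 0.07, adjusted p = 0.115). Without control caps at stage 9 replicate 2 this mean was 0.27.

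In control whole embryos and in control caps taken alone 0 members passed, with 1.06% and 0.685% of all probes called in these comparisons. Blocked on replicate number, or with the slide as a fixed term, 1 member passed in control whole embryos, ube2n (-0.73). The chain-building ube2n differed in the other direction from psmc3 and usp25. Its ratio ranged from -2.24 to -0.78 around -1.54 at stage 9 and from -2.40 to -1.29 around -1.97 at stage 10, lower in 7 of 7 pairs. The mean of its group differences was -0.42 (SE 0.17, adjusted p = 0.308). Blocked on replicate number, the ube2n value was -0.36 and passed (adjusted p = 0.00481), as it did with the slide as a fixed term (-0.37, adjusted p = 0.00582), under which usp46 passed too. Its partner ube2v2 was above in 7 of 7 pairs, with a mean of the group differences of 0.23 (SE 0.10, adjusted p = 0.370). Among the proteases, usp10 was also above in 7 of 7 pairs and usp46 was below in 7 of 7. How often 7 of 7 pairs had 1 direction among all probes was not counted. The stage difference did not pass a test of caps against whole embryos for any member (0.00466% of all probes called). At an unadjusted p under 0.05 there were 0 members, beside 448 of 21458 probes.

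The tissue comparison asked which transcripts differ between the explanted ectoderm and the whole embryo, taken as the mean of the 4 differences of caps minus whole embryos at matched stage and morpholino. 6 of 27 members passed, 3 higher and 3 lower in caps, against 16.5% of all probes (8.47% higher and 7.99% lower). All 6 were among the 18 measured on every array (33.3%, against 28.1% of such probes), so the share of members called was near the background. By class, 2 of 4 USP probes were higher, 1 of 8 well-measured E2 probes was higher and 2 were lower, and 1 of 6 well-measured proteasome subunits was lower.

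usp8, a protease that acts on endocytosed receptors, had the largest tissue difference of any member. Its ratio ranged from 0.57 to 1.17 around a median of 0.96 on the 7 cap arrays and from -0.40 to 0.36 around 0.06 on the 8 whole embryo arrays, so the tissues did not overlap. It was 1.82-fold higher in caps (log2 difference 0.87, SE 0.12, limma adjusted p = 0.00204), with values of 0.82 and 0.97 in controls at stages 9 and 10 and 0.74 and 0.94 in PVD2 embryos. usp25 ranged from 0.38 to 0.75 around 0.67 in caps and from -0.19 to 0.30 around 0.22 in whole embryos, again without overlap. It was 1.40-fold higher in caps (0.48, SE 0.07, adjusted p = 0.00219). The E2 gene ube2g1 ranged from 0.15 to 0.68 around 0.46 in caps and from -0.72 to 0.25 around 0.06 in whole embryos, with overlap, and was 1.39-fold higher in caps (0.48, SE 0.12, adjusted p = 0.0321).

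ube2n ranged from -2.40 to -1.65 around -1.97 in caps and from -2.05 to -0.78 around -1.41 in whole embryos, with overlap, and was 1.54-fold lower in caps (-0.62, SE 0.17, adjusted p = 0.0407). The ATPase psmc3 ranged from -0.67 to -0.25 around -0.43 in caps and from -0.32 to 0.04 around -0.19 in whole embryos and was 1.19-fold lower in caps (-0.25, SE 0.05, adjusted p = 0.0157). All 6 called members had the same direction in 4 of 4 combinations of stage and morpholino, and no single combination passed on its own for any of them. Arrays of the tissues did not overlap for 3 of 27 members (11.1%), against 6.1% of all probes.

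**Figure D2:**
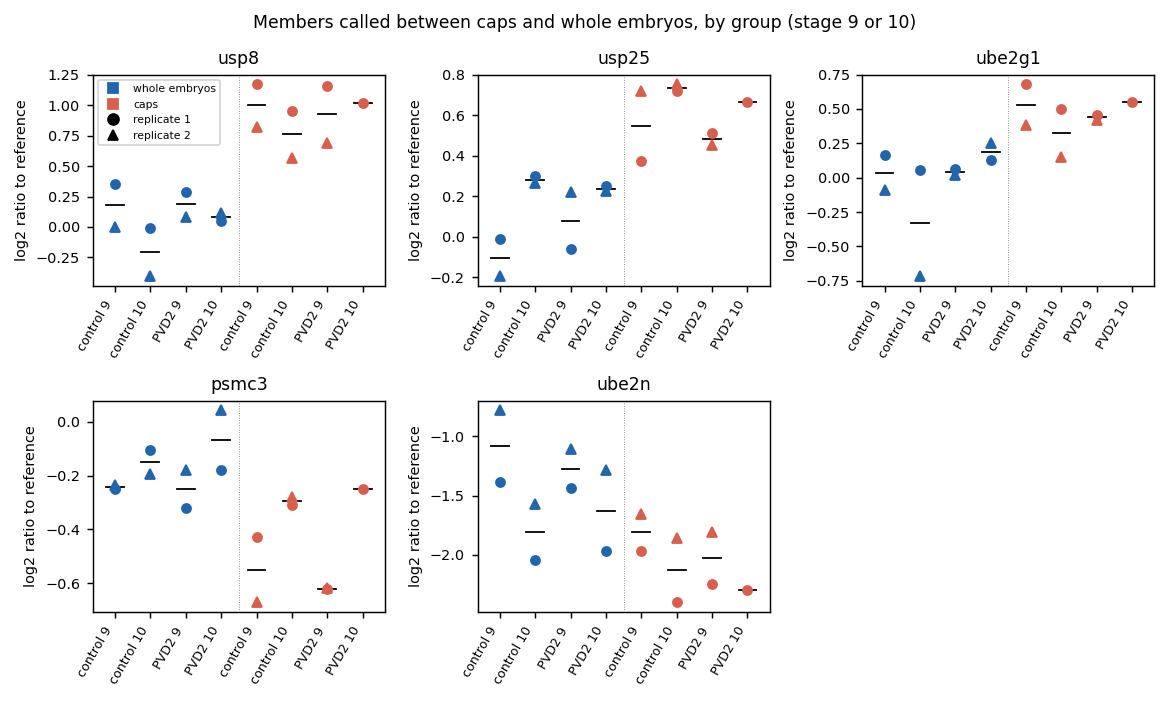
Log2 ratio of sample over reference (y axis) for 5 members called between tissues, by group (x axis: control or PVD2 at stage 9 or 10), whole embryos left of the dotted line and caps right of it; circles are replicate 1, triangles replicate 2 and bars group means. usp8 and usp25 do not overlap between tissues, and the other panels do.

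The core subunits showed smaller tissue values, none of which passed in the main fit. psma4-B was 0.19 higher in caps (SE 0.11, adjusted p = 0.275), in 4 of 4 combinations, and psma4 had a difference of -0.15 (SE 0.18, adjusted p = 0.605). Xrpn10c was 0.29 higher (SE 0.11, adjusted p = 0.114), in 4 of 4 combinations, and passed with the replicate block (0.32, adjusted p = 0.0249), as Ube2e2 did (0.30, adjusted p = 0.0164). Xrpn10c also passed without background correction (33% of all probes called), with the Feature Extraction ratio (34.1%) and with the authors' values of 16 arrays (39.3%) or 15 (34.5%). It did not pass in Cy3 alone (37.7%). psma4-B passed with the authors' values of 16 arrays. In Cy3 alone the core probes psma3, PSMB3 and psmb4 passed, none of them above background on all arrays.

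Because whole embryos and caps lay on different slides, the same difference was computed with the slide as a random block. 2 of 27 members then passed, against 5.54% of all probes. They were usp8 (0.84, adjusted p = 0.0125) and usp25 (0.49, adjusted p = 0.0343), while psmc3 (adjusted p = 0.122), ube2g1 (0.184) and ube2n (0.105) did not pass. Median centring of each array in place of loess called 2.33% of all probes and ended all 6 calls (usp8 0.84, adjusted p = 0.0802, and usp25 0.49, adjusted p = 0.385). A fit without moderation called 4 of 27 members, against 13.3% of all probes, without ube2g1 (adjusted p = 0.0599) and ube2n (adjusted p = 0.0735). Among 15 fits that each left out 1 array, ube2g1 did not pass in 7 (adjusted p 0.0555 to 0.0737), those without control whole embryos at stage 9 replicate 2, replicate 1 of the control caps at either stage, or either replicate of PVD2 whole embryos or PVD2 caps at stage 9. ube2n did not pass in 11 (adjusted p 0.0510 to 0.0877), that is, in all but those without replicate 1 of control whole embryos at either stage, control caps at stage 10 replicate 2 or PVD2 whole embryos at stage 10 replicate 1. usp8, usp25 and psmc3 passed in 15 of 15.

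The 2 channels were also read apart, since the labels give the same reference pool for all arrays. In Cy5, the reference channel, 62.4% of all probes and 19 of 27 members differed between the slides of caps and those of whole embryos. For usp25 the Cy5 value differed by -0.34 (SE 0.04, adjusted p = 1.76e-05) and the Cy3 value by 0.03 (SE 0.07, adjusted p = 0.770). For psmc3 the values were 0.20 in Cy5 (SE 0.04, adjusted p = 0.00143) and 0.01 in Cy3 (SE 0.04, adjusted p = 0.842). This Cy3 value was smaller than its SE, so no direction is read from it. These differences of usp25 and psmc3 lay mostly in the reference channel. usp8 differed by 0.56 in Cy3 (SE 0.12, adjusted p = 0.00663) and -0.16 in Cy5 (SE 0.03, adjusted p = 0.00104), and ube2n by -0.55 in Cy3 (SE 0.13, adjusted p = 0.0103) and -0.08 in Cy5 (SE 0.06, adjusted p = 0.266), so most of these 2 differences lay in the sample channel. ube2g1 differed by 0.29 in Cy3 (SE 0.15), which did not pass (adjusted p = 0.177), and by -0.13 in Cy5 (SE 0.05, adjusted p = 0.0323). Median net Cy3 over all probes was 17.6 to 34.8 on whole embryo arrays and 60.8 to 67.2 on cap arrays, and the part of this brightness in the single-channel values was not tested.

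**Figure D3:**
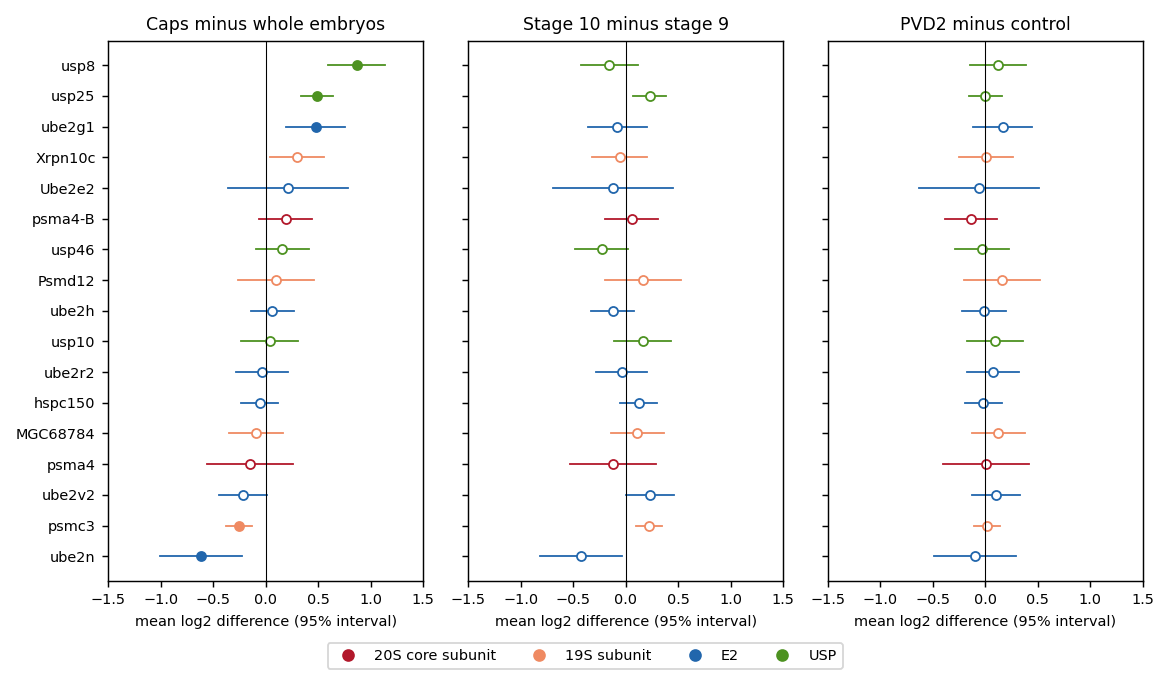
Mean log2 difference with its 95% interval (x axis) for 17 of the 18 members well above background on all arrays, for caps minus whole embryos, stage 10 minus stage 9, and PVD2 minus control; colour gives the class and filled points passed the test. 5 members are filled in the tissue panel and 0 in the other panels.

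The main question of the study was the effect of POUV depletion. The PVD2 effect was taken as the mean of the 4 differences of PVD2 minus control. For it 0 of 27 members had an unadjusted p under 0.05, beside 904 of 21445 probes. No member passed the test (limma, 0 of 27, against 0.387% of all probes and 0.794% of those above background on all arrays). The count was also 0 in whole embryos at stages 9 and 10 (0% of all probes called in each), in caps at stage 9 (0.0279%) and at stage 10 (0%), and for its interaction with tissue or with stage (0% in each). The 18 well-measured members had effects between -0.14 and 0.16, with a median of 0.01 against 0.02 for all such probes. By group, the median was 0.01 in whole embryos at stage 9 (0.03 for all such probes), 0.21 in whole embryos at stage 10 (0.07), -0.08 in caps at stage 9 (-0.05) and 0.01 in caps at stage 10 (0.02). At stage 10 in whole embryos, the group whose replicates agreed least, 15 of 18 values were positive (all such probes: 5953 positive and 3541 negative). In caps at stage 9, 16 of 18 were negative (all such probes: 6099 negative and 3369 positive). The effect in caps minus that in whole embryos was negative for 18 of 18 (median -0.14, against -0.08 for all such probes, of which 6406 were negative and 3039 positive). The 95% intervals of the mean effect lay within 0.5 log2 units of zero for 16 of 18 and within 1 unit for 18 of 18.

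Among the 21 members above background on at least 1 array of every group, the 5 with the smallest p gave the following values. The remaining members, psmb1 and psmb4 among them, were not ranked. ube2g1 was 0.16 above control (SE 0.12), from a range of -0.72 to 0.68 around 0.16 in controls and 0.02 to 0.55 around 0.25 in PVD2 samples, and the difference ran from 0.07 without control whole embryos at stage 10 replicate 2 to 0.26 without replicate 1 of that group. usp8 was 0.12 above (SE 0.12), with 0.06 to 0.18 when 1 array was left out (PVD2 caps at stage 9 replicate 1 and replicate 2). psma3, which was dim on 3 arrays, was 0.05 above (SE 0.04), with 0.03 to 0.07 (PVD2 whole embryos at stage 10 replicate 1 and replicate 2). The median net Cy3 of psma3 (27.5) was below those of psmb1 (30.8) and psmb4 (33.3), for which no fold is given. Its small difference and SE are therefore not read as a precise absence of an effect. psma4-B, at -1.61 to -1.12 around -1.23 in controls and -1.70 to -1.20 around -1.43 in PVD2 samples, had a difference of -0.14 (SE 0.11), negative in 4 of 4 combinations and 5 of 7 pairs, and ran from -0.19 to -0.08 without replicate 2 or replicate 1 of PVD2 whole embryos at stage 10, and its sign turned with median centring (0.18). MGC68784 was 0.12 above (SE 0.11), with 0.05 to 0.20 without replicate 2 or replicate 1 of control caps at stage 9, and its sign turned in Cy3 alone (-0.02). Adjusted p was 1.00 for each, and PVD2 and control arrays were apart for 0 of 27 members, against 0.145% of all probes. psma4 (0.00, interval -0.41 to 0.41), psmc3 (0.01, interval -0.11 to 0.14) and Xrpn10c (0.00, interval -0.25 to 0.26) had still smaller differences.

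The largest difference of any member was between replicate numbers rather than between the study's groups. PSMB8, the immunoproteasome subunit LMP-7, ranged from -1.01 to -0.40 around a median of -0.81 on the 8 replicate 1 arrays and from 0.56 to 2.21 around 2.04 on the 7 replicate 2 arrays. Every replicate 2 array was thus above every replicate 1 array, in both tissues, both stages and both morpholinos, and the lowest of them was PVD2 whole embryos at stage 10 replicate 2. Net Cy3 of the probe was 24.2 to 57.6 on replicate 1 arrays and 235 to 1069 on replicate 2 arrays, while the Cy5 signal of the reference overlapped (230 to 312 and 119 to 471). A term for the replicate number, added after this split was seen, gave 2.57 (SE 0.20, limma adjusted p = 1.81e-04). The value was 2.28 in whole embryos (SE 0.21) and 2.97 in caps (SE 0.25). Among all probes, 0.112% had a replicate difference at least as large. In the authors' table, which also holds the array of PVD2 caps at stage 10 replicate 2, that array was 5.29 log2 units above replicate 1 of its group. The authors' values were processed otherwise than the ratios above, so this size is not comparable with those of the replicate term. The split left wide intervals for the study's comparisons of PSMB8. It also entered their values, because PVD2 caps at stage 10 had only a replicate 1 array. In that group PSMB8 differed by -1.55 from the mean of its controls, but by 0.02 from the control array of its slide. Its PVD2 effect was -0.73 (interval -2.76 to 1.30) and its stage change -0.63 (interval -2.66 to 1.40), and a fit blocked on replicate number gave -0.41 (SE 0.20, adjusted p = 0.901) and -0.31 (SE 0.20, adjusted p = 0.556). psmb9-A, the other immunoproteasome probe, had a replicate term of -0.14 (SE 0.04, limma adjusted p = 0.0822). Its net Cy3 was as low as 8.75, so an absence of a split is not read from this value.

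With the same term 8 of 27 members passed (29.6%, against 12.9% of all probes), 7 of them among the 18 well-measured members (38.9%, against 24.6% of such probes). Replicate 2 was higher for PSMB8, Ube2e2 (0.71, SE 0.07, adjusted p = 5.00e-04), ube2n (0.48, SE 0.05, adjusted p = 8.92e-04), psma4 (0.48, SE 0.08, adjusted p = 0.00643) and ube2h (0.24, SE 0.05, adjusted p = 0.0115). It was lower for Psmd12 (-0.42, SE 0.08, adjusted p = 0.00968), usp8 (-0.30, SE 0.07, adjusted p = 0.0211) and usp46 (-0.27, SE 0.07, adjusted p = 0.0359). PSMB8, Ube2e2 and psma4 had replicates that did not overlap (3 of 27, against 3.67% of all probes). Each replicate number of a tissue lay on a slide of its own, so slide and replicate cannot be told apart, and what sets the replicates apart was not tested.

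**Figure D4:**
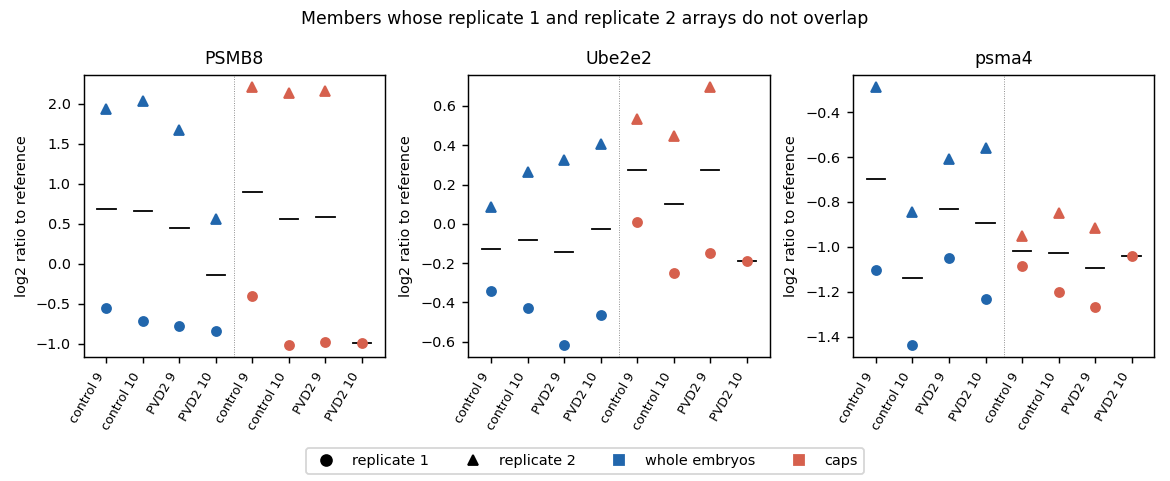
Log2 ratio of sample over reference (y axis) by group (x axis) for the 3 members whose replicates do not overlap, with circles for replicate 1, triangles for replicate 2 and bars for group means, whole embryos left of the dotted line and caps right of it. PSMB8 triangles lie between 0.56 and 2.21 and circles between -1.01 and -0.40.

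Other genes of the pathway, ligases and their adaptors among them, were read from a list of 82 names, of which 15 had a probe and 14 were above background on all arrays. For the stage change 10 of 15 had a positive and 5 a negative value, and 1 passed the test (against 5.07% of all probes), fzr1, an activator of the anaphase-promoting complex that was lower at stage 10 (-0.92, SE 0.10, adjusted p = 9.87e-04). Between tissues 5 of 15 passed (against 16.5% of all probes, and 28.1% of those above background on all arrays), 2 higher and 3 lower in caps, while 11 had a positive and 4 a negative value. The higher ones were the ligase Smurf1, which acts on BMP signalling (1.20, SE 0.29, adjusted p = 0.0252), and cdc16, a subunit of the anaphase-promoting complex (0.72, SE 0.10, adjusted p = 0.00252). The lower ones were cops8 of the signalosome (-0.58, SE 0.09, adjusted p = 0.00474), fzr1 (-0.49, SE 0.10, adjusted p = 0.0107) and Ufd1l, a cofactor of the segregase vcp (-0.26, SE 0.07, adjusted p = 0.0412). For the PVD2 effect 0 of 15 passed. The activating enzyme ube1, which the rule did not take, was 0.41 higher in caps (SE 0.11, adjusted p = 0.0374), and Xubc4, a conjugating enzyme spelled differently in its description, had -0.44 (SE 0.17, adjusted p = 0.114).

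The tissue labels were checked against markers. All 6 endoderm markers passed the test as lower in caps (median -4.75, Mix.1 -5.94 and Bix4 -5.66). Of 4 mesoderm markers 3 passed as lower (Xbra -2.64) and 4 had a negative value, and of 5 ectoderm markers 1 passed as higher (dlx3-A 1.32) and 3 had a positive value. The part of this difference in cell makeup in the member values was not tested.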

How the data were processed

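The authors labelled samples with Cy3 and the reference with Cy5 and read the arrays with Feature Extraction 9.5.1.1. The deposited intensity values used were each spot's mean signal and local background median, not normalized. Feature Extraction had background-corrected and dye-normalized the deposited log10 ratio of each spot (Cy5 over Cy3), which was inverted here. The authors' table is also log10, with computation and centring not given in the sources used here (column medians 1.97 to 2.13). Differences between its arrays followed that log ratio (r 0.986 to 0.998 across probes, slope 3.24 to 3.31 on the log2 scale), so they were multiplied by 3.32.

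Here intensities were corrected by normexp (offset 50) and loess normalized within arrays, the 1417 controls and any spot marked as an outlier were dropped, and the 2 spots per probe were averaged to a log2 ratio. Well above background means Feature Extraction's own call in Cy3, which held for 50.0% to 63.6% of probes per array. Models with 8 group means were fitted with limma 3.58.1 (R 4.3.3, statmod 1.5.0), eBayes and Benjamini-Hochberg adjustment over all probes, and were tested on simulated data. The simulation drew independent noise for each array, so it does not cover variation shared by the arrays of a slide. The number of arrays limits the precision. Single channels were quantile normalized. The three-way ANOVA of the study follows an earlier publication and was not repeated, and a fit without moderation was run in its place.

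Same-numbered arrays of 1 tissue deviated together from their group means in 9 of 9 pairs (r 0.467 to 0.879), and across tissues in 10 of 12 (-0.369 to 0.662), so numbers pair arrays within a tissue, where they share a slide.

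Members and lists were chosen with earlier results of these data known. Genes named were the 20S probes, up to 10 called members per direction and comparison by size (otherwise the 5 of smallest p) and the ends of each class's range of ratios. The choice by size or p was made among members above background on at least 1 array of every group. Genes with a replicate split, the single-channel reading and the probe types were chosen after their values were seen, and the ending "-prov" was dropped in matching the lists after the files were seen. Values of 1 member are not reported here, and it remains in the counts.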

Additional observations from a re-analysis of the deposited data

How the results depend on the processing

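For the stage change the count of members called was 0 with loess ratios (5.07% of all probes called) and 3 without background correction (10.2%). In Cy3 alone it was 4 (9.92%), and with the Feature Extraction ratio 4 (10.7%). The authors' values gave 2 with 16 arrays (10.8%) and 1 with the same 15 (8.83%). The count was 1 with the replicate block (8.29%), 1 with the slide as a random block (8.51%) and 2 with the slide as a fixed term (9.79%). In control whole embryos it was 1 in Cy3 alone (4.83%), 1 with the replicate block (2.34%) and 1 with the slide as a fixed term (2.85%). In control caps it was 1 without background correction (1.72%), and in both tissues 0 otherwise. For the tissue difference the count of 6 (16.5% of all probes called) became 0 with median centring. That setting called 2.33% of all probes (15.6% of those calls higher in caps, against 51.5% with loess). The count was 10 with the authors' values of 16 arrays (39.3%) and 2 with the slide as a random block (5.54%). Among the 10 was BI448211, which was above background on 0 arrays. Cy3 alone called 9 members (37.7% of all probes), 2 of them among the 6, and gave psmc3 a value of 0.0107 (SE 0.04). Among the 9 were PSMB3, psmb4 and psma3, whose signal was low. The 15-array table called 8 (34.5%), BI448211 again among them. A fit without moderation called 4 (13.3%), and for stage and PVD2 it called 0 (3.59% and 0.0979%). The PVD2 count was 0 under all 13 alternatives and without each replicate, with psma4-B turned to 0.18 by median centring and MGC68784 to -0.0221 in Cy3 alone. The replicate block changed no call of a member other than those of ube2n by stage and of Xrpn10c and Ube2e2 by tissue. With median centring the median of all probes was -0.14 for the stage change in control caps (-0.01 with loess), -0.15 for the PVD2 effect in caps at stage 9 (-0.03) and -0.10 for the PVD2 effect in caps against whole embryos (-0.03). Signal limits psmb1, PSMB3, psmb4 and BI448211, for which no change can be read. It also limits psma3, BG233850 and BG413938, whose median net Cy3 was 27.5, 41.2 and 44.8, below the normexp offset of 50. Likewise psmb9-A (median 59.1) and PSMB8 on replicate 1 arrays (median 39.9) were near or below this offset. A small difference or SE of these probes is not read as an absence of change. The causes of the shifts between processing settings were not tested.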
